A study of Mus musculus with 4 samples.

Results

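The genes described here are the receptors, ligands and targets of the Notch pathway, 10 of the 21090 genes in a table of RNA sequencing values from mouse mammary tumor cell lines. They were taken by name: the receptors Notch1, Notch2, Notch3 and Notch4, the ligands Jag1 and Jag2, the DNA-binding factor Rbpj, and the targets Hes1, Hey1 and Heyl. There were 4 lines with 1 library each. All derive from a primary tumor, with lung metastasis, of a C57BL/6 mouse with an activating Pik3ca mutation and a Trp53 mutation, both conditional on Cre under the MMTV promoter, which is active in mammary epithelium. The controls (n = 2) were the parental line and a line with the vector control, and the knockouts (n = 2) were lines given a lentivirus with Cas9 and a guide RNA against exon 3 or exon 2 of S100a4. The study's methods describe puromycin selection of the infected lines and name no cloning step. The titles call the exon 2 knockout 308 and the other lines 307, so the exon 2 guide and this difference in name cannot be told apart. No label says that libraries of a group came from separate cultures, so a p-value measures the spread between these libraries.

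Notch receptors are cell surface proteins that are cut when a Jagged or Delta ligand on a neighboring cell binds them. ADAM proteases make an outer cut and the gamma-secretase complex an inner one, and the freed intracellular part enters the nucleus, where it joins Rbpj and Mastermind proteins to switch on genes such as Hes1, Hey1 and Heyl, which encode repressors of transcription. In the mammary gland the pathway is known for its part in luminal cell fate, and activated forms of Notch1 and Notch4 can drive mammary tumors in mice.

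Rbpj binds DNA around the letters TGGGAA. These letters, read on both strands, were looked for in the RefSeq promoters (GRCm38.p6, from 250 bases before to 50 bases after a start site) of the members and of the other target and Hes and Hey family genes. The targets Hes1, Hey1 and Heyl had no promoter in the set used, so theirs were not searched. Of the 7 members matched to a promoter, the 4 receptors and both ligands had no match in this window, and Rbpj did, at RefSeq start sites that lie inside its annotated span. Among the other targets, 3 of 5 genes with a promoter had a match, and 25.6% of all 32851 promoters did. The windows of Rbpj and of Hes5, a Notch target of the nervous system, are shown because they hold the letters that Rbpj binds, and a match is a description, not a site of binding. Each is 5′ to 3′ on the plus strand, the strand of both genes, with the 6 matching letters in capitals (TTCCCA is the match on the other strand).
Rbpj, chr5:53590185-53590214: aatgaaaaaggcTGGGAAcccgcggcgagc
Rbpj, chr5:53590269-53590298: gacgctcgcattTTCCCAggacccctcctc
Hes5, chr4:154960685-154960714: agggcgagcgcgTTCCCAcagcccggacat
Hes5, chr4:154960829-154960858: ggccgccgagtgTGGGAAcggccgcggcgc

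Levels are the deposited RPKM values, in which reads are scaled to the length of the gene and to the total of the library. The total behind each RPKM column was between 22472024 and 31235456 reads, and whole reads could be recovered from the ratios between libraries, so the members' levels are given with their reads, and 95% Wilson intervals of these cover counting error only. S100a4, the edited gene, stood at 3576 (parental) and 4741 (vector control) RPKM among the controls, and at 1136 and 1105 with the exon 3 and exon 2 guides. The study reports truncating mutations in most S100a4 transcripts of the knockout lines, and loss of the protein by Western blot. The RNA level alone thus does not measure the loss. The lines carried few marks of mammary epithelium: of 6 epithelial genes only the keratins Krt8 and Krt18 reached a mean RPKM of 1, and Epcam, Cdh1, Krt5 and Krt14 did not, against 6 of 6 mesenchymal genes. Of 6 endothelial markers 0 reached a mean RPKM of 1 (summed RPKM 0.186 to 0.443 in the 4 libraries), and Tie1 and Emcn were at 0. Of 6 pericyte and smooth muscle markers only Pdgfrb and Acta2 reached it, with sums of 132 (parental), 478 (vector control), 243 (exon 3) and 310 (exon 2). Of 6 leukocyte markers only Cd68 reached it, with Cd3e and Emr1 at 0. The leukocyte sum was 4.93 and 3.55 among controls and 11.6 and 13.2 among knockouts. Nearly all of this sum was Cd68 (4.92, 3.36, 11.5 and 13.2 in the same order). The part of this difference in the results below was not tested. The summed mesenchymal level was 4603 (parental) and 2466 (vector control), against 2179 and 2377 in the knockouts. The summed epithelial level was 130 (parental), 34.3 (vector control), 107 (exon 3) and 74.8 (exon 2). In a culture, fewer cells of a type and less RNA per cell cannot be told apart.

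Of the 10 members, 9 were above 0 and 6 had a mean RPKM of at least 1, the level required for testing. Notch2 was the most abundant member (mean RPKM 13.5 ± 6.56, SD, n = 4), followed by Notch1 (6.0 ± 2.46), and this order held in 4 of 4 libraries. Notch1 was above Rbpj (3.94 ± 1.44) in all 4. Rbpj, Jag1 (2.76 ± 0.886), Hes1 (2.63 ± 1.88) and Jag2 (1.42 ± 1.01) followed, with each step in this order present in 3 of 4 libraries, so these neighbors did not differ beyond the spread between libraries. Jag2 and Notch3 (0.886 ± 0.351) were in that order in 2 of 4 libraries. Notch3, Hey1 (0.169 ± 0.131) and Notch4 (0.153 ± 0.142) had mean RPKM under 1 and entered no test, and Heyl was listed at 0 in all 4 libraries.

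**Figure D1:**
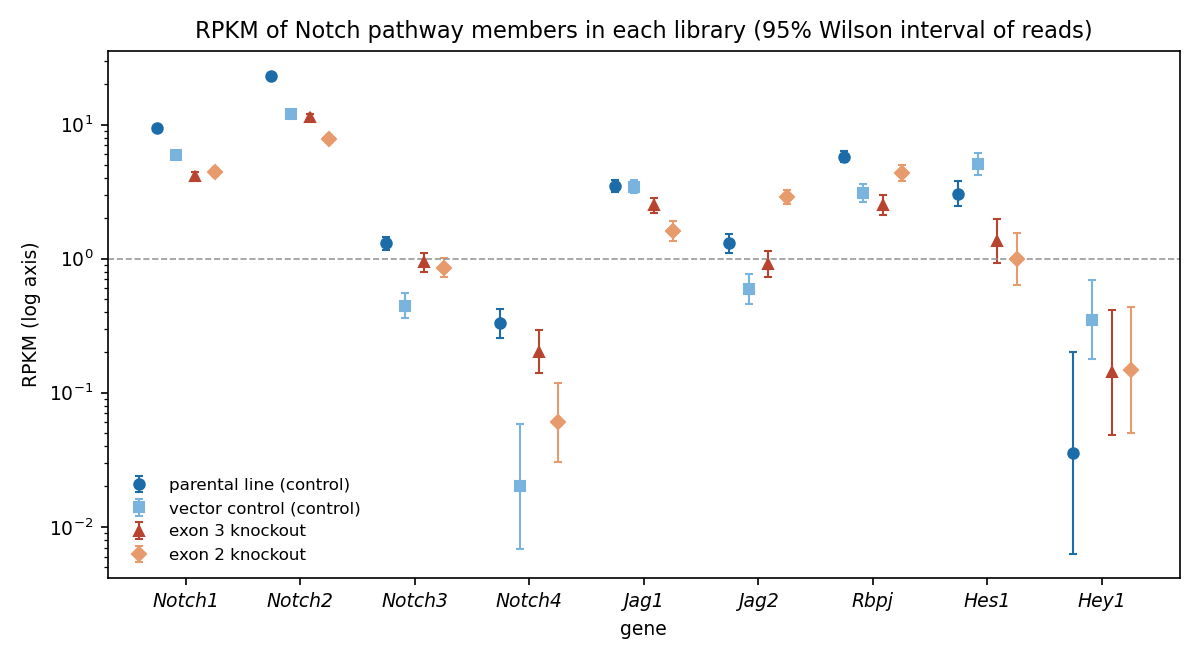
RPKM on a log axis for the 9 members above 0, with 1 point per library and bars for the 95% Wilson interval of its reads; the dashed line is RPKM 1, and Heyl, listed at 0, is not drawn. Both knockouts sit below both controls for Notch1, Notch2, Jag1 and Hes1, and the exon 2 knockout sits highest for Jag2 (2.88).

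The comparison of knockouts with controls asks what the loss of S100a4 does to expression. Hes1, the most abundant of the 3 target members, was at least 2-fold lower in each knockout than in each control. Notch1, Notch2 and Jag1 were also lower in both knockouts than in both controls, by less. Jag2 and Rbpj overlapped between the groups. In limma, fitted on log2(RPKM + 1) over 10871 genes, 0 of the 6 members had an adjusted p under 0.05, and 1 of them, Hes1, had an unadjusted p under 0.05. With voom on the recovered reads 0 of the 6 passed. The limma fit on log2(RPKM + 1) called 2 genes of all those tested (0.0184%) by adjusted p and 19.1% by unadjusted p. S100a4, the edited gene, was not among the 2, with a log2 change of -1.88 and an adjusted p of 0.0731 in that fit. An adjusted p above 0.05 thus does not show that a member was unchanged. Both knockouts lay below both controls in 4 of the 6 tested members, against 31.2% of all tested genes and 41.1% of those with mean RPKM from 1 to 15, a range set after seeing that all 6 members fall in it. Both knockouts lay above both controls in 0 of the 6, against 21.9%. The count of 4 became 2 (Notch1 and Hes1) after quantile normalization. Without the vector control it was 7 of the 10 members, among them Notch3 and Notch4, which entered no test. Lying below 1 control is easier than lying below 2, and the shares of all genes under these settings are not given here.

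Hes1 (chromosome 16 from 30064384 to 30067796, plus strand, GRCm38) encodes a repressor that is a direct target of Notch in many tissues. Its RPKM was 3.05 (81 reads) for parental cells, 5.10 (110 reads) with the vector control, 1.35 (27 reads) with the exon 3 guide and 0.996 (19 reads) with the exon 2 guide. The groups did not overlap, and neither did the Wilson intervals, which ended at 1.97 and 1.56 in the knockouts and began at 2.46 and 4.23 in the controls. The smallest of the 4 knockout and control ratios was 2.25-fold (exon 3 against the parental line) and the largest 5.12-fold (exon 2 against the vector control). The mean was 4.08 ± 1.45 in the controls and 1.18 ± 0.254 in the knockouts (SD, n = 2 each). The log2 change, knockouts minus controls, was -1.20 (SE 0.385), with an unadjusted p of 0.00952 and an adjusted p of 0.160 in limma. Of the members, 1 was lower by 2-fold or more in every pair, as were 3.29% of all tested genes and 5.58% of those with mean RPKM from 1 to 15, and 0 were higher by as much, against 0.423%. The same ratio taken on RPKM + 1 did not reach 2-fold in every pair. Without the parental line the adjusted p was 0.0348 in limma, in a fit that left 1 control and called 788 genes. The range over all alternatives was 0.0348 to 0.573, and the change was negative in 12 of 12.

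The coding sequence of Hes1 has a GC content of 62.1%, against a median of 53.0% over tested genes. Across 10772 genes the log2 change was higher at higher GC content (Pearson's r 0.458, across genes, which are not independent replicates). After each library was corrected for GC content and coding length, the change of Hes1 was -1.47 (SE 0.338, adjusted p 0.294 in limma), larger in size than before. The change of Notch1 went from -0.68 to -0.44, of Notch2 from -0.75 to -0.47 and of Jag1 from -0.56 to -0.30. That of Rbpj, with the lowest GC content of the 6 (48.8%), went from -0.27 to 0.06.

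**Figure D2:**
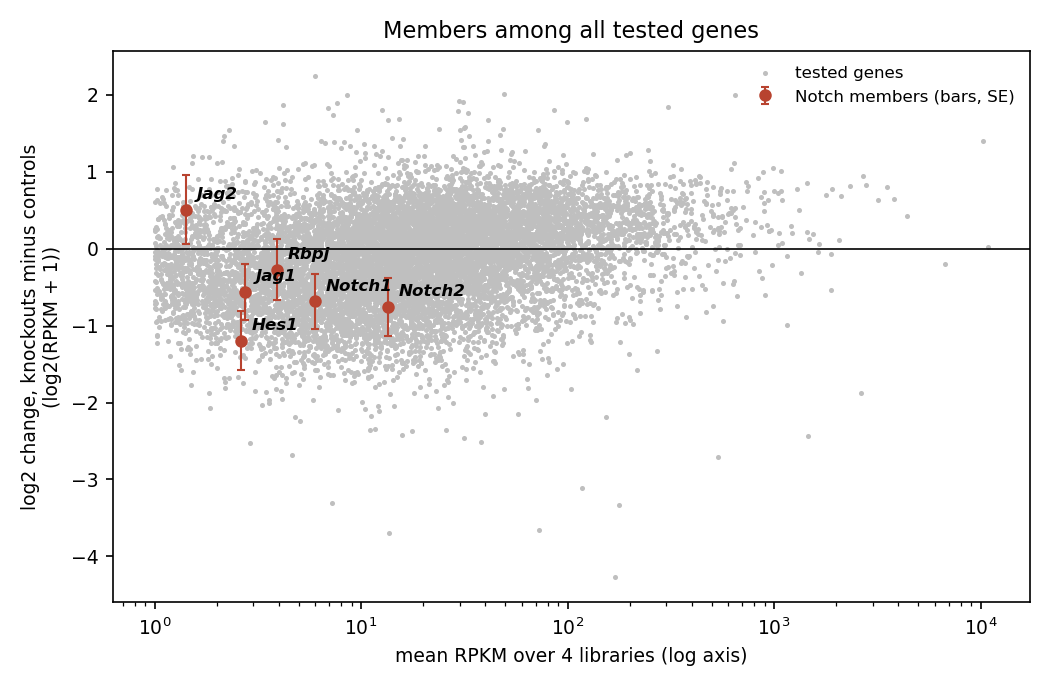
Log2 change between knockouts and controls, on the log2(RPKM + 1) scale, against mean RPKM on a log axis, for all 10871 tested genes (gray) and the 6 tested members (red, with SE bars). Hes1 (-1.20) lies furthest from 0 among the members, and Jag2 (0.51) is the only member above 0.

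The genes whose profile over the 4 libraries came closest to that of Hes1 were sought among all tested genes, by the largest of the 4 differences between centered log2(RPKM + 1) values. The closest was Plod2, a lysyl hydroxylase that acts on collagen, with a largest difference of 0.03. Its RPKM was 26.4 for parental cells, 40.2 with the vector control, 14.5 with the exon 3 guide and 12.3 with the exon 2 guide. Dapp1, an adaptor of phosphoinositide signaling, differed by at most 0.07 and Serinc2 by at most 0.09. Only 4 libraries enter this measure.

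Notch1 (chromosome 2 from 26457903 to 26516663, minus strand) encodes the receptor best known from T cell leukemia. Its RPKM was 9.51 (2256 reads) for parental cells, 5.90 (1138 reads) with the vector control, 4.14 (739 reads) with the exon 3 guide and 4.45 (760 reads) with the exon 2 guide. The knockouts lay close together and below both controls, and the controls lay further from each other than the vector control lay from either knockout. The mean was 7.70 ± 2.55 in the controls and 4.30 ± 0.218 in the knockouts (SD, n = 2 each). On the log2 scale limma gave knockouts minus controls as -0.68 (SE 0.356, adjusted p 0.314). It was -0.99 with the vector control left out, and -0.38 both with the parental line left out and after quantile normalization.

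Notch2 (chromosome 3 from 98013527 to 98150361, plus strand) encodes a receptor expressed in many tissues. Its RPKM was 22.9 (5319 reads) for parental cells, 11.9 (2251 reads) with the vector control, 11.4 (1994 reads) with the exon 3 guide and 7.75 (1292 reads) with the exon 2 guide. The parental line stood apart, and the interval of the vector control (11.5 to 12.4) overlapped that of the exon 3 knockout (11.0 to 12), so these 2 libraries were not distinguishable at this depth. The mean was 17.4 ± 7.78 in the controls and 9.60 ± 2.62 in the knockouts (SD, n = 2 each). On the log2 scale limma gave knockouts minus controls as -0.75 (SE 0.378, adjusted p 0.299). It was -1.20 if the vector control was left out, -0.50 if the exon 2 knockout was and -0.31 if the parental line was. The groups overlapped after median ratio scaling, quantile normalization or the GC and length correction.

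Notch3 (chromosome 17 from 32120820 to 32166852, minus strand), a receptor of vascular smooth muscle, had RPKM of 1.30 (283 reads) for parental cells, 0.447 (79 reads) with the vector control, 0.937 (153 reads) with the exon 3 guide and 0.857 (134 reads) with the exon 2 guide. The controls lay on either side of the knockouts.

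Notch4 (chromosome 17 from 34564268 to 34588503, plus strand), an endothelial receptor, had RPKM of 0.331 (61 reads) for parental cells, 0.02 (3 reads) with the vector control, 0.202 (28 reads) with the exon 3 guide and 0.0603 (8 reads) with the exon 2 guide. The interval of the parental line began at 0.257 and that of the vector control ended at 0.0588, so the controls differed beyond counting error. The ratio of the vector control to the parental line was 0.0605. The ratio of the exon 2 to the exon 3 knockout was 0.298, and the groups overlapped.

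The summed RPKM of the 4 receptors was 34.1 for parental cells, 18.3 with the vector control, 16.7 with the exon 3 guide and 13.1 with the exon 2 guide. Notch2 made up 67.3%, 65.2%, 68.4% and 59.1% of the sum, in the same order. Notch2 thus made up most of the receptor transcripts in each library, and the sum was highest in the parental line.

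Among the ligands, Jag1 (chromosome 2 from 137081456 to 137116644, minus strand) had RPKM of 3.48 (398 reads) for parental cells, 3.43 (319 reads) with the vector control, 2.49 (214 reads) with the exon 3 guide and 1.62 (133 reads) with the exon 2 guide. The controls were within counting error of each other and both knockouts lay below them, the exon 2 knockout lowest. The mean was 3.46 ± 0.0350 in the controls and 2.06 ± 0.618 in the knockouts (SD, n = 2 each). On the log2 scale limma gave knockouts minus controls as -0.56 (SE 0.366, adjusted p 0.415). It was -0.35 with the exon 2 knockout left out and -0.22 after quantile normalization, where the groups overlapped.

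Jag2 (chromosome 12 from 112907819 to 112929776, minus strand) had RPKM of 1.30 (153 reads) for parental cells, 0.595 (57 reads) with the vector control, 0.915 (81 reads) with the exon 3 guide and 2.88 (244 reads) with the exon 2 guide. The exon 2 knockout was the highest, with an interval from 2.54 to 3.26 that reached none of the others, and the exon 3 knockout lay between the controls. On the log2 scale limma gave knockouts minus controls as 0.51 (SE 0.448, adjusted p 0.549), and it was 1.02 without the exon 3 knockout and 2.04e-05 without the exon 2 knockout. The ratio of Jag2 to Jag1 within a library was 0.373 for parental cells, 0.173 with the vector control, 0.367 with the exon 3 guide and 1.78 with the exon 2 guide. Jag2 was thus the more abundant Jagged transcript in the exon 2 knockout only, among these 4 libraries.

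Rbpj (chromosome 5 from 53466152 to 53657362, plus strand), through which all 4 receptors act, had RPKM of 5.76 (392 reads) for parental cells, 3.09 (171 reads) with the vector control, 2.52 (129 reads) with the exon 3 guide and 4.37 (214 reads) with the exon 2 guide. The groups overlapped, with 1 high and 1 low library in each. The mean was 4.43 ± 1.89 in the controls and 3.45 ± 1.31 in the knockouts (SD, n = 2 each), and limma gave a difference of -0.27 on the log2 scale (SE 0.398, adjusted p 0.727). RefSeq lists 3 Rbpj pseudogenes, and how reads shared with them were counted is not stated, so the level of Rbpj is uncertain.

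Hey1 (chromosome 3 from 8663359 to 8667256, minus strand), a repressor related to Hes1, had 1 read in parental cells, 8 with the vector control and 3 in each knockout, RPKM of 0.0356, 0.35, 0.142 and 0.148. All 4 Wilson intervals overlapped. With 1 to 8 reads in a library, differences between the lines were not tested, and the overlap does not show that there were none. Heyl (chromosome 4 from 123233556 to 123249875, plus strand), a target in smooth muscle, had 0 reads in every library, which allows an RPKM of up to 0.0979 in the parental line and 0.136 in the exon 2 knockout (3 reads over its annotated coding length of 981 bases).

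**Figure D3:**
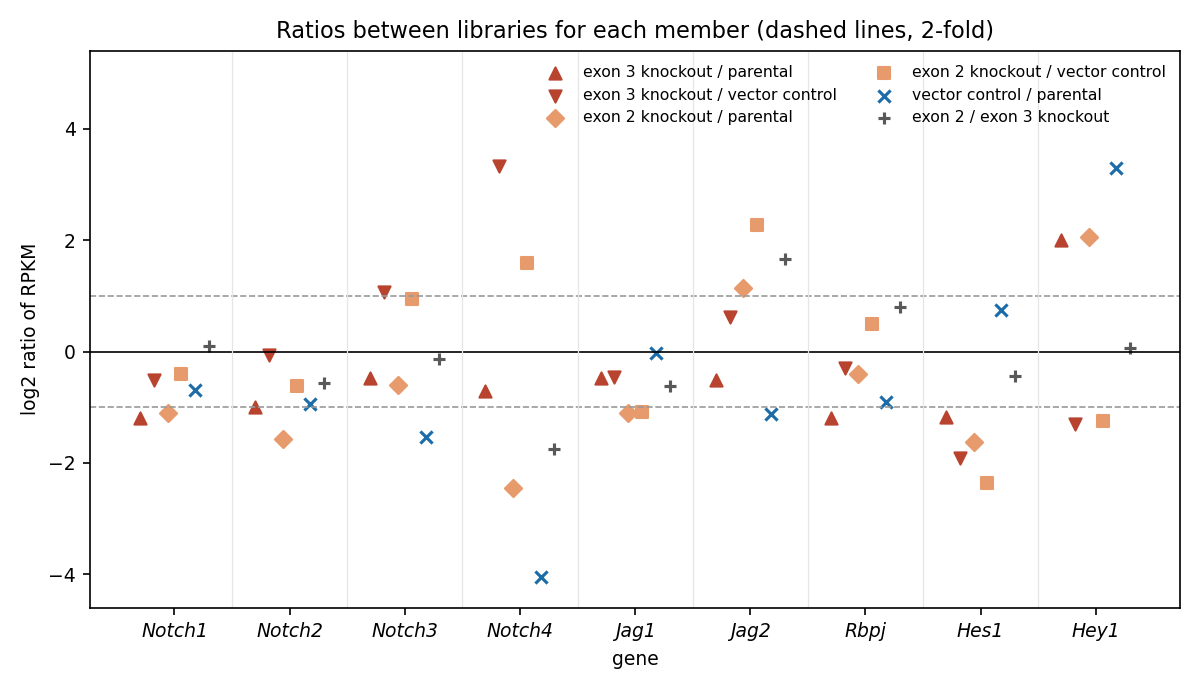
Log2 ratios of RPKM between libraries for the 9 members above 0: the 4 knockout and control pairs, the vector control over the parental line (crosses) and the exon 2 over the exon 3 knockout (plus signs); dashed lines mark 2-fold. Hes1 is the only member with all 4 pairs beyond 2-fold in 1 direction.

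The spread within each group was measured by the ratio of its 2 libraries, with no test. The 2 libraries of a group are different lines and not replicates. The controls differ in the vector, which by the titles the parental line lacks, and the knockouts differ in guide and in the name of the line. The ratios thus include any effect of these differences. The vector control and the parental line were at least 2-fold apart in 4 of the 10 members, Notch3, Notch4, Jag2 and Hey1. Of these only Jag2 is among the 6 tested members, and 11.9% of tested genes were that far apart. Among genes with mean RPKM from 1 to 15, where all 6 lie, 16.8% were. The exon 2 and exon 3 knockouts were at least 2-fold apart in Notch4 and Jag2, the latter again 1 of the 6, against 9.85% of tested genes and 16% of those with mean RPKM from 1 to 15. Jag2 was lower in the vector control than in the parental line (ratio 0.458) and higher in the exon 2 than in the exon 3 knockout (ratio 3.15). For Hes1 the ratio of the vector control to the parental line was 1.67 and that of the exon 2 to the exon 3 knockout 0.735, both nearer to 1 than any of its 4 knockout and control ratios.

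The other genes of the pathway were read from lists by role, 65 genes in all, of which 48 had mean RPKM of at least 1. In limma 0 of the 48 had an adjusted p under 0.05, against 0.0184% of all tested genes. An unadjusted p under 0.05 in limma was found for 12 of the 48, 10 lower and 2 higher. Over all tested genes 19.1% had one, in either direction, and their split by direction is not given here. With voom 0 passed. Both knockouts lay below both controls in 17 of the 48 (35.4%, against 31.2% of all tested genes) and above them in 9 (18.8%, against 21.9%). The median log2 change was -0.01, against -0.08 for all tested genes. The shares are near those of all genes. The 17 lower genes had a median GC content of 49.9% and the 9 higher ones 60.0%, and in 17 of 17 the change was smaller after correction for GC content and length. These 17 were picked as lower in the same libraries to which the correction was fitted, so smaller changes were likely beforehand. The matching share among all lower genes is not given, and the part of GC content was not tested. After that correction 9 of the 48 were lower in both knockouts, and the matching share of all genes is not given here.

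The proteases that make the outer cut, Adam10 and Adam17, were lower in both knockouts. Adam17 had RPKM of 34.9 for parental cells, 43.0 with the vector control, 13.8 with the exon 3 guide and 16.7 with the exon 2 guide, at least 2-fold apart in all 4 pairs. The limma estimate was -1.30 (log2, SE 0.311, adjusted p 0.105) and -0.73 after the GC and length correction. Adam10 had RPKM of 79.1, 53.1, 21.8 and 36 in the same order, with a limma estimate of -1.18 (log2, SE 0.349, adjusted p 0.139), or -0.54 after the correction. Ncstn (nicastrin), a subunit of gamma-secretase and the most abundant gene of the list, had RPKM of 79, 59.0, 77.9 and 60.3 and a log2 change of 0.01. Of the 9 cleavage genes tested, 2 lay lower in both knockouts (22.2%, against 31.2% of all tested genes) and 2 higher (22.2%, against 21.9%), and the median change was 0.13.

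The coactivators that assemble on the receptor's intracellular part had a median log2 change of -0.78, with 5 of 8 lower in both knockouts (62.5%, against 31.2% of all tested genes) and 0 higher (against 21.9%). The 5 lower genes all had mean RPKM from 1 to 15, and 41.1% of the tested genes in that range were lower in both knockouts. Kat2b, an acetyltransferase, had RPKM of 9.86 for parental cells, 10.4 with the vector control, 3.47 with the exon 3 guide and 3.21 with the exon 2 guide. The limma estimate was -1.36 (log2, SE 0.331, adjusted p 0.105), or -1.0 after the correction for GC content and length, and it was at least 2-fold lower in all 4 pairs. The study had picked Kat2b, and also Crebbp, another of the 5, from these same libraries. The direction of these genes, and their part in the count of 5, is thus no independent evidence. Ep300, another acetyltransferase, had a limma estimate of -1.01 (log2, SE 0.368, adjusted p 0.191), and Snw1, the most abundant gene of the list, -0.30. The median of the list was -0.47 after the correction.

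The genes of ligand and receptor trafficking and turnover lay on both sides, with 6 of 11 lower in both knockouts (54.5%, against 31.2% of all tested genes) and 4 higher (36.4%, against 21.9%). Their median log2 change was -0.67, and -0.28 after the GC and length correction. Mib2, a ubiquitin ligase that helps ligands to be taken up, had levels of 16.4 and 12.6 among the controls (parental first), and 38.7 and 26.1 with the exon 3 and exon 2 guides. The limma estimate was 1.09 (log2, SE 0.332, adjusted p 0.145) and 1.06 after the GC and length correction. Itch, a ubiquitin ligase acting on receptors, had a limma estimate of -1.03 (log2, SE 0.321, adjusted p 0.155), which went to -0.29 after the correction. Nedd4, a related ligase and the most abundant gene of the list, had RPKM of 599, 373, 206 and 316 and a log2 change of -0.89, or -0.33 after the correction. Among the 12 corepressors tested, 4 lay lower in both knockouts (33.3%) and 2 higher (16.7%), shares near the 31.2% and 21.9% of all tested genes. Ncor1, which holds target genes silent with Rbpj, had a limma estimate of -1.01 (log2, SE 0.311, adjusted p 0.149), or -0.34 after the correction, and Aes, the most abundant, 0.59.

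**Figure D4:**
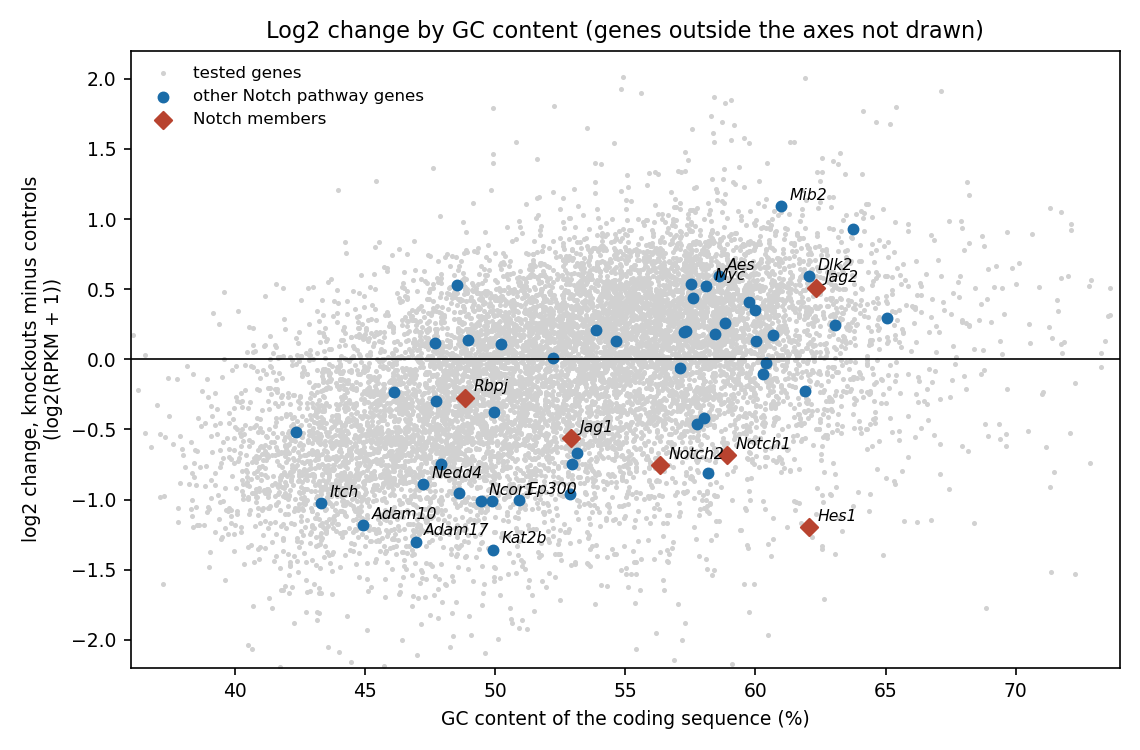
Log2 change between knockouts and controls, on the log2(RPKM + 1) scale, against GC content of the coding sequence in percent, for tested genes (gray; 40 outside the axes are not drawn), 48 other pathway genes (blue) and the 6 tested members (red). Adam10, Adam17, Itch and Ncor1 lie at low GC content among other genes with negative changes, and Hes1 lies low at a GC content of 62.1%.

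Of the other ligands only Dlk2, a Delta-like protein without the receptor-binding domain of Delta, had a mean RPKM of at least 1, with 55.2 for parental cells, 22.7 with the vector control, 40.0 with the exon 3 guide and 72.7 with the exon 2 guide. Like Jag2 it was highest in the exon 2 knockout and lowest in the vector control, and its groups overlapped. Of the 4 receptor glycosylation genes tested, 0 lay lower in both knockouts (against 31.2% of all tested genes) and 0 higher (against 21.9%). Their log2 changes ran from -0.07 to 0.41, the highest that of Rfng. Among the 9 other targets and Hes and Hey family genes, 3 were tested, and 1 of them, Hes6, lay above both controls in both knockouts (RPKM 19.3, 18.3, 27.2 and 19.8, log2 change 0.29). Myc and Ccnd1, growth genes that answer to many signals besides Notch, had log2 changes of 0.52 and 0.18 with overlapping groups. Hes3 and Hes5 were listed at 0 in all 4 libraries.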

How the data were processed

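RNA-seq was performed on 4 cell lines, 1 library each, grouped by sample title into 2 controls and 2 knockouts. The authors deposited RPKM values, 1 column per library (0 columns of per-sample values were left unmatched). The submitters' processing notes name CASAVA (version 1.8), GSNAP and GRCm38. The labels name a stranded total RNA kit and the methods a TruSeq RNA kit. The gene model and counting rule are not given in the sources used here. Whole reads were recovered from RPKM ratios, to within 0.001 reads, for 99.97% of genes above 0, and their absolute scale was set by coding lengths in GENCODE M21 (GRCm38), which held 20973 of 21090 symbols. For a gene whose reads in all 4 libraries share a factor, this rests on the annotated length.

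Genes with mean RPKM of at least 1 were tested on log2(RPKM + 1), which understates changes of low genes, with limma (version 3.58.1, R version 4.3.3) and an intensity trend, without covariates. P-values were Benjamini-Hochberg adjusted over all 10871 tested genes, with a threshold of 0.05. An exact permutation test of 2 libraries against 2 cannot give a two-sided p below 0.333. Ratios used RPKM without a pseudocount. The GC and length correction subtracted a spline fit from each library. The fit was tested on simulated data.

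Alternatives were a pseudocount of 0.1, median ratio scaling, quantile normalization, dropping the RPKM filter or raising it to 5, a robust or untrended limma prior, voom on recovered reads, other folds and leaving out each library. Counts over the other pathway genes under alternatives were added after seeing the data. All members are described. From the genes of each pathway list with mean RPKM of at least 1, the text names the most abundant gene, those with the largest changes and any at least 2-fold apart in all 4 pairs. The members and lists were chosen with earlier results of these data known. Promoter sequences are from RefSeq (GRCm38.p6). Calculations used Python 3.11.15 with numpy 2.4.6 and pandas 2.3.3.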

Additional observations from a re-analysis of the deposited data

Results flagged for a closer look

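Lfng and Poglut1, which encode enzymes that add sugars to Notch receptors, drew attention because the exon 3 knockout lay below both controls and the exon 2 knockout above both. Lfng stood at 8.81 (parental), 9.59 (vector control), 8.39 (exon 3 guide) and 14.5 (exon 2 guide) RPKM, so that exon 3 relative to exon 2 was -0.79 in log2 terms. Poglut1 stood at 19.1, 22, 17.2 and 28.6 RPKM, in that order of lines, and its value in the same terms was -0.73. Neither difference was tested, because each guide has 1 library.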

How the results depend on the processing

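limma called 2 genes of all those tested. It called 1 with a pseudocount of 0.1 and 1 after quantile normalization. It called 0 after median ratio scaling (2177 at an unadjusted p under 0.05), 0 without a filter (2132), 0 after the GC and length correction (1406) and 0 with voom (2044). It called 32 with a filter at mean RPKM of 5, 285 with a robust prior, and 3 to 788 when 1 library was left out (788 without the parental line and 451 without the vector control). The median log2 change of all tested genes was -0.08, and 0.04 after quantile normalization. The cause of these differences was not tested.

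Of the 10 members, 4 were lower in both knockouts, 3 after median ratio scaling or the GC and length correction (Notch1, Jag1 and Hes1), 2 after quantile normalization, and 4 to 7 with 1 library left out. None was higher in both, and 0 to 3 were with 1 library left out. Hes1 was the 1 member at least 2-fold lower in all 4 pairs, 0 members were after quantile normalization, on RPKM + 1 or at 3-fold, and 1 to 3 were with 1 library left out. None was 2-fold higher, and 0 to 1 were with 1 library left out. The direction of Rbpj turned after quantile normalization (0.038), after the GC and length correction (0.061), and without the parental line (0.089) or the exon 3 knockout (0.031), and leaving out 1 library gave -0.64 to 0.089. The signs of Notch1, Notch2, Jag1 and Hes1 held in every alternative run (Notch1 and Notch2 alone were tested at mean RPKM of 5). The change of Jag2 was 2.04e-05 without the exon 2 knockout, which gives no direction, and was positive in the other runs. With 2 libraries in each group, none of these members had an adjusted p under 0.05 in limma. The other pathway genes higher in both knockouts numbered 9, and 13 to 22 with 1 library left out, and those at least 2-fold lower in all pairs numbered 2, and 2 to 8. Leaving out 1 library cannot lower a count of genes whose groups lie apart, because such groups stay apart with fewer libraries. The ranges of these counts with 1 library left out thus do not measure stability. No paired analysis was possible because the labels give no replicate numbers that groups share.

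Depth limits Notch4, Hes1 and Hey1 most among the members above 0, with 100, 237 and 15 reads in all 4 libraries.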
